A study of Mus musculus with 160 samples.

Results

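Reg3b, Reg3g, Retnlb, Lypd8, Itln1, Saa1, Saa2, Saa3 and Lcn2 are 9 genes of the mouse gut barrier and of the acute-phase response. They were chosen by name, through the Ensembl gene identifiers of the count files matched to mouse symbols, and all 9 were found among the 39179 genes counted in each library. Levels are given as CPM, in which each count is divided by its library total and put on one scale. The libraries were made from the distal colon of mice in a dextran sulfate sodium (DSS) colitis model, in which a polymer given in the drinking water injures the colonic epithelium.

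The 160 libraries came from 4 mouse lines, each with homozygous knockout animals and wild-type littermates, so that every animal carried or lacked a single targeted gene. The Nckap1l line (also called Hem1, strain C57BL6/J) had 16 knockout animals, 12 male and 4 female, and 15 wild-type animals, 7 male and 8 female. The Dock2 line (C57BL6/J) had 18 knockout animals, 10 male and 8 female, and 24 wild-type animals, 12 male and 12 female. The Gpsm3 line (C57BL6/J) had 20 knockout and 20 wild-type males, and the Dok3 line (strain 129) had 26 knockout and 21 wild-type males. Sex is as labelled, and sex-linked genes went against the label in 5 Dok3 libraries. DSS was given at 3% to the Dock2 and Gpsm3 lines and at 3.5% to the Dok3 line according to the labels. By the study's methods a first round of Dok3 animals had 3%, and the Nckap1l line, for which the labels state no dose, had less than the other lines. It was given for 5 days and followed by plain water, and tissue was taken on day 10, or on day 12 in the Nckap1l line. The labels do not say which animals received DSS and which were untreated controls, so each group below holds whatever mixture of the 2 there was. The animals were young adults by the study's methods. The animals were the replicates, and each library is taken as a separate animal of its group.

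The colonic epithelium holds bacteria away from its surface with secreted and membrane-bound proteins. Reg3b and Reg3g encode C-type lectins that bind bacterial cell walls, Retnlb encodes the goblet cell protein resistin-like molecule beta, Lypd8 encodes a heavily glycosylated protein of the apical surface of colonocytes that binds flagellated bacteria, and Itln1 encodes intelectin, a lectin that recognises microbial sugars. Saa1, Saa2 and Saa3 encode serum amyloid A proteins, which carry lipid and retinol and are made in large amounts during inflammation by the liver, the gut epithelium and, for Saa3, also by macrophages and stromal cells. Lcn2 encodes lipocalin 2, which sequesters bacterial siderophores, is made by inflamed epithelium and is stored in neutrophil granules. Interleukin-22 and interleukin-17, acting through STAT3, NF-kB and C/EBP transcription factors, are the best known inducers of several of these genes.

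The sequences before the gene starts are shown first. Some of the members are neighbours or copies of each other, and whether this bears on their levels was not tested. They were taken from RefSeq (build GRCm38.p6), 5′ to 3′ on the strand of the gene, from the 250 bases before the annotated start, and parts that lie in an exon of another annotated transcript of the gene were left out. An entry was found for 8 of the 9 members, with none used for Retnlb. Capitals mark matches to the TATA box (TATAAA), to STAT (TTCNNNGAA), to C/EBP (TTGCNNAA) or to NF-kB, searched on both strands. The 2 Reg3 genes lie on chromosome 6, and their 250-base windows were 68.4% identical. In Reg3b (chr6:78370707-78370860, + strand, bases −178 to −25 from the start) the capitals mark a STAT match at −129 to −121 and, at the end, the first bases of a TATA match. In Reg3g (chr6:78468875-78469124, − strand, bases −250 to −1) they mark a TATA match on the opposite strand, an NF-kB match at −123 to −114 and a TATA match at −27 to −22.
Reg3b: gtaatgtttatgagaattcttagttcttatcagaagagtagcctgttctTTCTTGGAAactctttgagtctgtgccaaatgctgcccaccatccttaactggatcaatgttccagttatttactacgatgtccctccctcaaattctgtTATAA
Reg3g: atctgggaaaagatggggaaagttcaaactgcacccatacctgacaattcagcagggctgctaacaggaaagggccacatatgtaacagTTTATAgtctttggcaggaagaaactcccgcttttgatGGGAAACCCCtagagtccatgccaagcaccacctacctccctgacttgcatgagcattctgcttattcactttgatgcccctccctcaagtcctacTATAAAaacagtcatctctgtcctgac

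The 3 Saa genes lie together on chromosome 7, and the windows of Saa1 and Saa2 were 94.8% identical, against 48.9% for Saa1 and Saa3 and 47.9% for Saa2 and Saa3. A C/EBP match was present at −182 to −175 in Saa1 (chr7:46742981-46743230, − strand), at −183 to −176 in Saa2 (chr7:46751583-46751789, + strand), and on the opposite strand at −99 to −92 in Saa3 (chr7:46715701-46715926, − strand). Lcn2 on chromosome 2 had a C/EBP match at −216 to −209, shown with 30 bases only (chr2:32387937-32387966, − strand), since it lies in an exon of another Lcn2 transcript.
Saa1: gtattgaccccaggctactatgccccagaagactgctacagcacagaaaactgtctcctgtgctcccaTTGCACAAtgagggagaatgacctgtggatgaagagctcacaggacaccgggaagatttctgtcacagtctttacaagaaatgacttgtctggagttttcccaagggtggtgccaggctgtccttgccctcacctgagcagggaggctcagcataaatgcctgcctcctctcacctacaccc
Saa2: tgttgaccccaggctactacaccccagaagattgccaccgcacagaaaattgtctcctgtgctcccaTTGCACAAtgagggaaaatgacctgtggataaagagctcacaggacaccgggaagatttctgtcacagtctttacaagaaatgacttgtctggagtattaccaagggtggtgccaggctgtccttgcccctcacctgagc
Saa3: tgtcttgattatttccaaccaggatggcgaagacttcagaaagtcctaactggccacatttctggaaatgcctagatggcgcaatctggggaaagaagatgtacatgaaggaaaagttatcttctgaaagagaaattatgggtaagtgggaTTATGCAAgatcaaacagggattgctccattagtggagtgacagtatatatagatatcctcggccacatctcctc
Lcn2: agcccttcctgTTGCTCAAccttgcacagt
Among all 32841 promoter windows of this length, 9.57% held a C/EBP match, 7.02% a STAT match, 3.9% an NF-kB match and 12.4% a TATA match. None of the 4 motifs was matched in the windows of Lypd8 or Itln1. These matches describe letters only, and binding was not measured.

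The genes covered a very wide range of levels, from the most abundant transcripts of the tissue to nearly undetected ones. Lypd8 (ENSMUSG00000013643, chromosome 11, 58379043 to 58390728) ranked 6th of all genes by mean CPM, with a lowest value of 730, a median of 5705 and a highest of 10501 CPM over the 160 libraries. Saa1 (ENSMUSG00000074115) followed, with a lowest value of 18.6, a median of 428 and a highest of 1581 CPM. The other 7 genes had medians at or below 2.78 CPM. Lcn2 had a median of 2.78 CPM and a highest value of 2417, Retnlb (ENSMUSG00000022650) a median of 2.0 and a highest value of 883, and Saa3 (ENSMUSG00000040026) a median of 0.801 and a highest value of 5005. These 3 genes were low in most animals and very high in a few. Saa2 (ENSMUSG00000057465) stayed between 0.266 and 6.16 CPM with a median of 2.0, and Itln1 (ENSMUSG00000038209) had a median of 0.527 and a highest value of 66.1.

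Reg3b (ENSMUSG00000071356) and Reg3g (ENSMUSG00000030017) were near the limit of detection in many animals. Reg3b had 0 counts in 73 libraries and under 3 counts in 103, a median of 0.0604 CPM, and more than 10 CPM in 6 libraries. Reg3g had 0 counts in 29 libraries and under 3 in 80, a median of 0.177 CPM, and more than 10 CPM in 1 library. At the depths here, a count of 0 allows a level of up to 0.15 to 0.69 CPM (3 counts of the library total, counting error only), and in many libraries the 2 genes could not be separated from 0.

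Per kilobase of exon, Lypd8 was the first of the 9 in 159 of 160 libraries and Saa1 the second in 150. The length used counts every base in an exon of any annotated transcript, and it can exceed that of the main transcript. It was 2478 bases for Saa1 and 2623 for Lcn2 against 696 for Retnlb, so comparisons between genes on this scale are approximate. The medians were 4443 CPM per kb for Lypd8, 172.7 for Saa1, 2.87 for Retnlb, 1.06 for Lcn2, 0.796 for Saa2, 0.462 for Itln1, 0.307 for Saa3, 0.0837 for Reg3g and 0.0529 for Reg3b. From Retnlb downward the ranges over libraries overlapped, so the order of those neighbours is an order of medians only. Saa3 was the first of the 9 in 1 library and lay above Saa1 in 8. Although the promoter windows of Saa1 and Saa2 were nearly identical, the CPM of Saa1 was 31.8 to 954 times that of Saa2, with a median ratio of 203. Over all annotated transcripts, these 2 genes share 8.96% (Saa1) and 8.63% (Saa2) of their windows of 100 bases, the read length. Their counts and the ratio are therefore in part uncertain. The share among the reads of the main transcripts was not measured and may be larger. The other 7 genes shared no window with another gene.

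**Figure D1:**
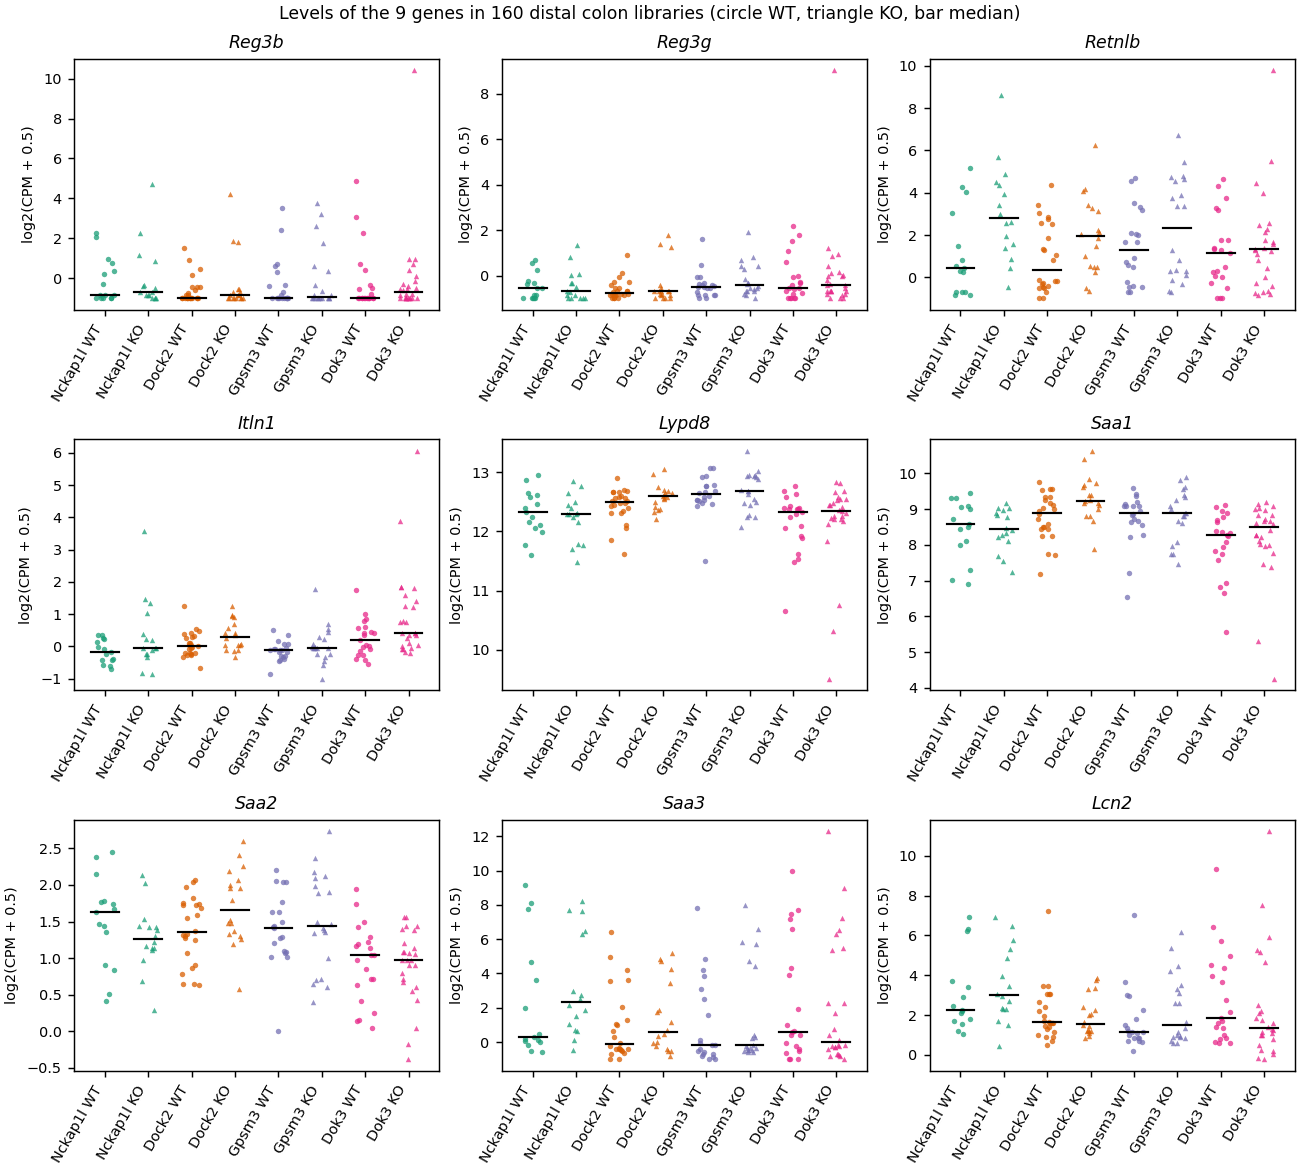
Levels of the 9 genes by line and genotype, as log2(CPM + 0.5) on the vertical axis, with 1 point a library (circles wild type, triangles knockout) and a bar at the median of each group. Lypd8 stays in a narrow high band with a median of 5705 CPM, while Saa3, Lcn2, Retnlb and Reg3b lie low in most libraries and reach 5005, 2417, 883 and 1354 CPM in single ones.

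The genes also differed in how much they varied between animals of the same line, genotype and sex. After the group means were removed, the SD of log2(CPM + 0.5) was 2.97 for Saa3, the 25th largest of 20565 genes ranked. It was 2.02 for Retnlb (rank 166), 1.91 for Lcn2 (rank 190) and 1.54 for Reg3b (rank 334), and at most 1.62% of genes varied more than these 4. It was 1.03 for Reg3g, 0.82 for Saa1, 0.77 for Itln1, 0.53 for Saa2 and 0.45 for Lypd8. Saa3 exceeded 10 CPM in 44 libraries and 100 CPM in 15, Lcn2 exceeded 10 CPM in 38 and 100 CPM in 7, and both exceeded 10 CPM in 31. Retnlb exceeded 10 CPM in 35 libraries, and 18 of these also had Lcn2 over 10 CPM. All 6 libraries with Reg3b over 10 CPM had Retnlb over 10 CPM, and 4 of them had Lcn2 over 10 CPM.

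The most extreme libraries were of different kinds. A Dok3 knockout male had the highest Reg3b (1354 CPM), Reg3g (518) and Retnlb (883) of the series, with Saa3 at 148 and Lcn2 at 59.5. In that library the next highest values elsewhere, 28.4 for Reg3b and 4.05 for Reg3g, were exceeded many times over, its neutrophil markers summed to 492.5 CPM, and its Paneth cell and small intestine markers to 49.0 against a median of 4.01. Another Dok3 knockout male had the highest Saa3 (5005) and Lcn2 (2417), with neutrophil markers at 9722 CPM, Lypd8 at 1273 and Saa1 at 39.5. The second highest Saa3 (1012) and Lcn2 (659) were in a Dok3 wild-type male with neutrophil markers at 4923 CPM. Yet another Dok3 knockout male had the highest Itln1 (66.1), the highest sum of the Paneth cell and small intestine markers (321.7) and neutrophil markers of only 6.25. The next highest Retnlb values, 394 in a Nckap1l and 105.3 in a Gpsm3 knockout male, came with high goblet cell markers (34332 and 37661 CPM against a median of 12862) and with neutrophil markers of 30.5 and 9.09 CPM. The part of other tissue in these libraries was not tested.

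Markers of other cell types were examined over all libraries. The 12 colon epithelium markers were present in every group, with a sum of 2720 to 18155 CPM and a median of 12939. The 10 neutrophil markers summed to 2.15 to 9722 CPM with a median of 23.6, and 3 of them had a median under 1 CPM. The 6 hepatocyte markers summed to 4.27 to 226.4 CPM with a median of 35.8, and 4 of them had a median under 1 CPM. Keratins of skin and squamous epithelium exceeded 100 CPM in 32 libraries, 15 of them in the Nckap1l line (8 wild type and 7 knockout), 5 in Dock2, 3 in Gpsm3 and 9 in Dok3. In bulk tissue such as this, fewer cells of a type and less RNA per cell cannot be told apart.

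Which genes varied together was tested within each line, after the means of genotype and sex groups were removed, over the 36 pairs of genes in 4 lines (144 relations). DSS-treated and untreated animals could not be separated here or against the marker lists below. The relations thus hold across whatever mixture each line had, and the part of DSS in them was not tested. Pearson's r and Spearman's rho were each tested with 100000 permutations, two-sided, with Benjamini-Hochberg adjustment over all 144. Both passed for 12 pairs in the Nckap1l line (n = 31), 7 in Dock2 (n = 42), 14 in Gpsm3 (n = 40) and 16 in Dok3 (n = 47), and all but 1 pair in Gpsm3 and 4 in Dok3 were positive. No line fell into separate clusters for any of the genes.

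The strongest relations joined Saa3 with Lcn2, Saa1 with Saa2 and Lypd8, and Reg3b with Reg3g. Saa3 and Lcn2 varied together in every line, with r of 0.92 in Nckap1l, 0.81 in Dock2, 0.89 in Gpsm3 and 0.9 in Dok3 and rho of 0.84, 0.75, 0.78 and 0.77 (adjusted permutation p of 6.86e-05 in each line for both, the smallest the permutations could give). Without the 2 libraries farthest from the median, r was 0.89, 0.75, 0.83 and 0.85. Saa1 and Saa2 gave r of 0.78, 0.87, 0.86 and 0.68 and rho of 0.79, 0.88, 0.83 and 0.76 in the same order of lines, and Lypd8 and Saa1 gave r of 0.79, 0.74, 0.72 and 0.88 and rho of 0.81, 0.68, 0.6 and 0.65 (adjusted permutation p at most 0.000277). Without the 2 farthest libraries, r was 0.73 to 0.87 for Saa1 with Saa2 (Nckap1l 0.78, Dock2 0.86, Gpsm3 0.87, Dok3 0.73) and 0.73, 0.64, 0.6 and 0.75 for Lypd8 with Saa1. Saa2 had a median of 2.0 CPM against 428 for Saa1, and their transcripts share part of their read-length windows. How far Saa1 reads counted as Saa2 enter the relation of Saa1 with Saa2 was not tested. Reg3b and Reg3g gave r of 0.9, 0.93, 0.83 and 0.93 and rho of 0.79, 0.79, 0.63 and 0.75, with r of 0.83, 0.86, 0.7 and 0.72 without the 2 farthest libraries (adjusted permutation p of 6.86e-05 in each line). Reg3b had under 3 counts in 103 of the 160 libraries and Reg3g in 80, so low counts limit the relations of both genes.

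The serum amyloid genes did not vary as 1 group. Saa1 and Saa3 gave r between −0.53 and −0.17 over the 4 lines, and Saa2 and Saa3 between −0.26 and 0.16. Lypd8 and Lcn2 varied in opposite directions in the Dok3 line (r = −0.69, rho = −0.58, adjusted permutation p of 0.000166 and 0.00018, r = −0.51 without the 2 farthest libraries). In the other 3 lines r of this pair lay between −0.49 and −0.29 and rho between −0.32 and −0.02, and both did not pass together. Retnlb followed Saa3 in every line, with r of 0.57, 0.65, 0.67 and 0.48 and rho of 0.61, 0.75, 0.78 and 0.51 (adjusted permutation p at most 0.00384, and r of 0.61, 0.68, 0.72 and 0.52 without the 2 farthest libraries). Reg3b followed Saa3 in the Gpsm3 line (r = 0.76, rho = 0.78, adjusted permutation p of 6.86e-05) and in the Dok3 line (r = 0.51, rho = 0.64, adjusted permutation p of 0.00288 and 6.86e-05). In the Nckap1l and Dock2 lines Reg3b and Saa3 gave r of 0.28 and 0.29, with adjusted permutation p of 0.227 and 0.132.

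The sample numbers of 3 lines fell into blocks, which may mark processing groups although the labels do not say so, and the relations were recomputed within them. Within blocks, Saa3 and Lcn2 gave r of 0.92, 0.97 and 0.89 in Nckap1l (n = 14, 9 and 8), 0.93 and 0.89 in Gpsm3 (n = 20 and 20) and 0.94 and 0.82 in Dok3 (n = 30 and 17). Saa1 and Saa2 gave 0.84, 0.77 and 0.89, 0.79 and 0.9, and 0.58 and 0.91 in the same order, and Reg3b and Reg3g gave 0.83, 0.92 and 0.91, 0.78 and 0.88, and 0.96 and 0.81. Lypd8 and Saa1 gave 0.61, 0.96 and 0.19 in the Nckap1l blocks, 0.48 and 0.75 in Gpsm3 and 0.9 and 0.85 in Dok3, so that their relation was weak in the smallest Nckap1l block.

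**Figure D2:**
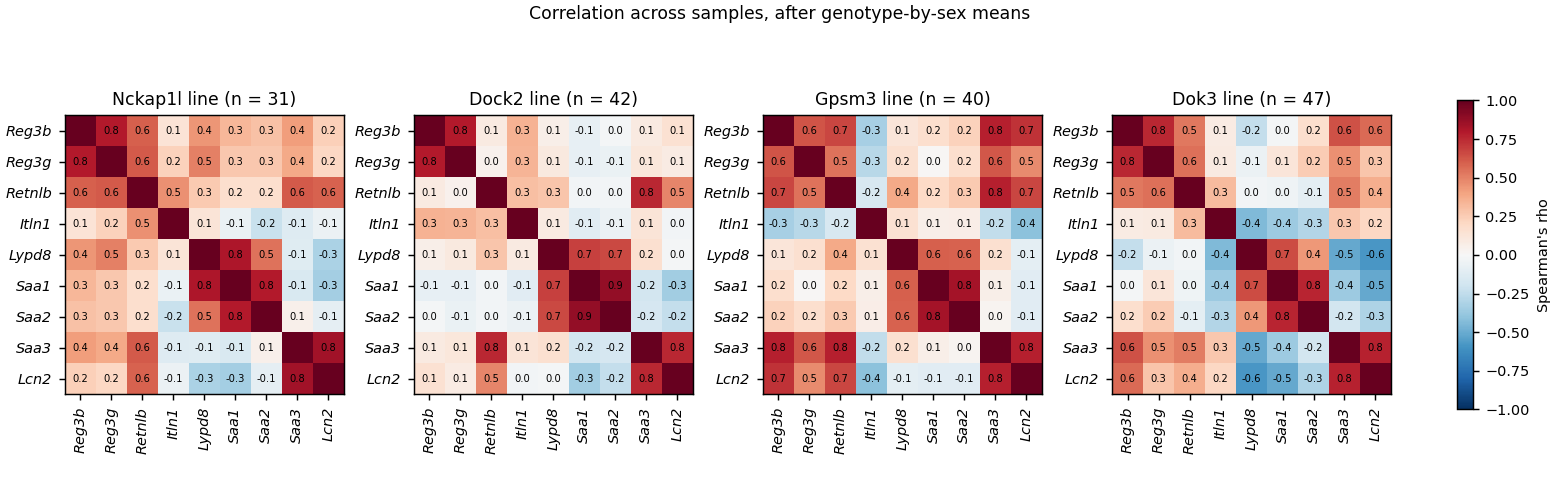
Spearman's rho between each pair of the 9 genes across libraries of 1 line, 1 panel a line, after genotype and sex group means were removed, with the color giving rho. Saa3 with Lcn2 (0.75 to 0.84), Saa1 with Saa2 (0.76 to 0.88), Lypd8 with Saa1 (0.6 to 0.81) and Reg3b with Reg3g (0.63 to 0.79) are positive in all 4 panels.

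Against cell type markers, Saa3 and Lcn2 followed the neutrophil markers, and Lypd8 and Saa1 followed the epithelium and the goblet cell markers. The mean log2 level of the 10 neutrophil markers gave r of 0.92, 0.92, 0.95 and 0.96 with Lcn2 (rho 0.88, 0.88, 0.93 and 0.91) in Nckap1l, Dock2, Gpsm3 and Dok3, and 0.97, 0.92, 0.94 and 0.96 with Saa3 (rho 0.94, 0.87, 0.83 and 0.87). All 8 relations had adjusted permutation p of 6.75e-05 or less, and r was 0.86 or more for Lcn2 and 0.89 or more for Saa3 without the 2 farthest libraries. The mean of the 12 epithelium markers gave r of 0.7, 0.35, 0.65 and 0.94 with Lypd8 (rho 0.7, 0.44, 0.53 and 0.71, adjusted permutation p at most 0.0441) and 0.69, 0.57, 0.65 and 0.84 with Saa1 (rho 0.74, 0.59, 0.41 and 0.57, adjusted permutation p at most 0.0214). The corresponding r without the 2 farthest libraries were 0.65, 0.48, 0.66 and 0.88 for Lypd8 and 0.7, 0.55, 0.59 and 0.7 for Saa1. With the goblet cell markers r was 0.72, 0.39, 0.66 and 0.89 for Lypd8 (rho 0.65, 0.28, 0.43 and 0.56) and 0.63, 0.44, 0.58 and 0.84 for Saa1 (rho 0.57, 0.28, 0.33 and 0.59). Both measures passed for Lypd8 in all lines but Dock2 and for Saa1 in Nckap1l and Dok3 (adjusted permutation p at most 0.0134), and without the 2 farthest libraries r was 0.67, 0.31, 0.59 and 0.81 for Lypd8 and 0.55, 0.31, 0.53 and 0.72 for Saa1. In the smallest Nckap1l block (n = 8) these relations had r of −0.27 and −0.44. Retnlb, a goblet cell gene, followed the neutrophil markers in every line (r = 0.54, 0.66, 0.67 and 0.44, rho = 0.61, 0.76, 0.71 and 0.51, adjusted permutation p at most 0.00654). Its r with the goblet cell markers was 0.15, 0.44, −0.14 and 0.25 and passed only in the Dock2 line (rho = 0.46, adjusted permutation p of 0.00724 and 0.00765). These relations were among 108 computed with the 3 marker lists, of which 10, 9, 14 and 16 passed by both measures in the 4 lines.

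When libraries with more than 100 CPM of skin markers were left out, fewer relations passed by Pearson's r in part of the lines. In Nckap1l (n = 16) 12 pairs of genes became 9 and 12 relations with marker lists became 9, and in Dock2 (n = 37) the 12 with marker lists became 6. The r of Saa3 and Lcn2 was then 0.97 in Nckap1l, 0.85 in Dock2, 0.94 in Gpsm3 and 0.93 in Dok3, and the r of Lypd8 and Saa1 was 0.87, 0.78, 0.72 and 0.76. Lypd8 with the epithelium markers in the Dock2 line had r = 0.29 with an adjusted permutation p of 0.14.

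**Figure D3:**
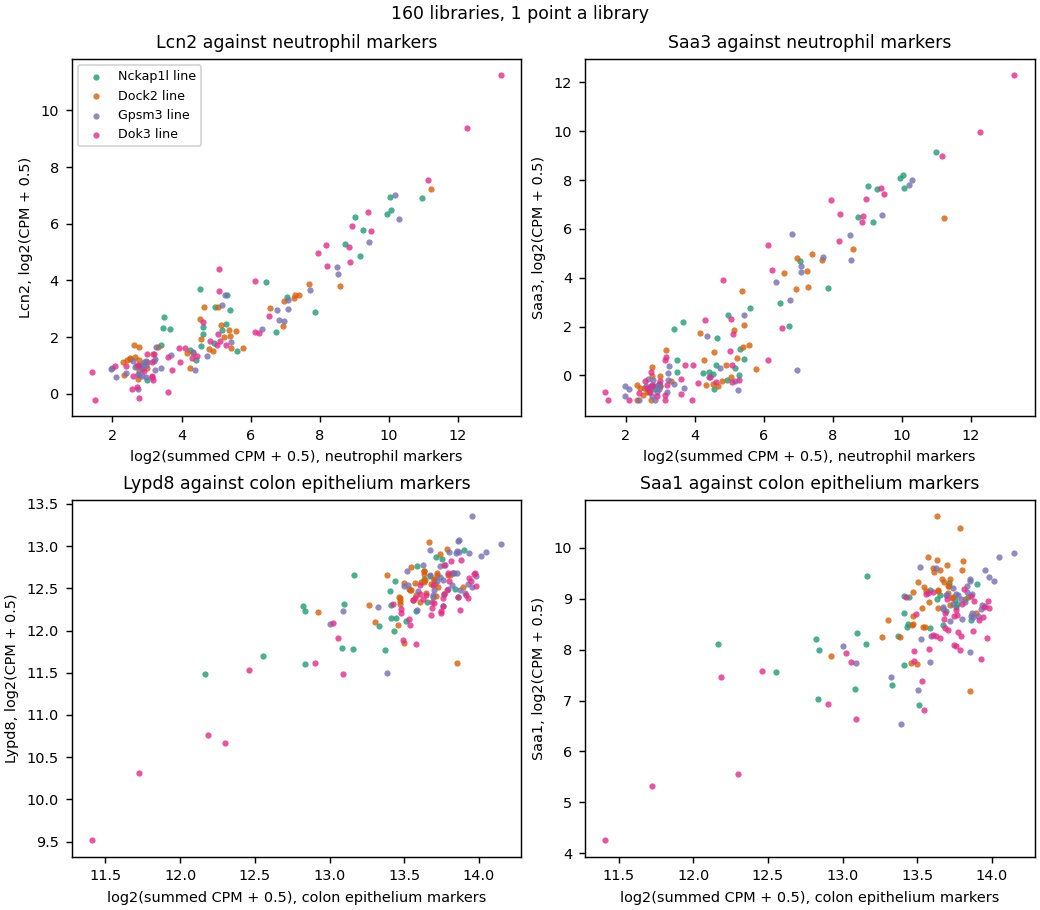
Levels of member genes, as log2(CPM + 0.5) on the vertical axis, against the summed level of a marker list, as log2(summed CPM + 0.5) on the horizontal axis, with 1 point for each of the 160 libraries. Lcn2 and Saa3 climb along the neutrophil markers from 2.15 to 9722 CPM, and Lypd8 and Saa1 drop where the epithelium markers are lowest.

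The genes whose levels were most like each member, out of 16001 genes with a median of at least 1 CPM, were found by Spearman's rho across all 160 libraries after the means of line, genotype and sex groups were removed, as a description only. For Lcn2 they were S100a8 (0.91), Cxcr2 (0.9), S100a9 (0.9), Hdc (0.89) and Slc7a11 (0.89), and the first 3 are among the neutrophil markers. For Saa3 they were Nlrp3 (0.9), Srgn (0.89), Plek (0.89), Ifitm1 (0.89) and Fcer1g (0.88), which include the inflammasome sensor Nlrp3 and the Fc receptor chain Fcer1g of myeloid cells. For Lypd8 they were Tspan1 (0.82), Slc44a4 (0.82), Tmprss2 (0.8), Sectm1b (0.8) and Tmem45b (0.8). For Saa1 they were Cyp2d9 (0.79), Slc44a4 (0.77), Me2 (0.74), Cds1 (0.74) and Ceacam20 (0.74), and for Saa2 they were Cideb (0.61), Cds1 (0.6), Ly75 (0.59), Slc44a4 (0.59) and Cyp2d9 (0.58), so that Slc44a4, a choline transporter-like protein, was listed for Lypd8, Saa1 and Saa2.

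For Retnlb the nearest genes were Kcnk6 (0.76), Tmsb10 (0.76), Ddah1 (0.75), Ly6a (0.74) and Sppl2a (0.74). For Reg3b they were Isx (0.62), Cd38 (0.62), Dcp2 (0.62), Jak3 (0.61) and Gm11805 (0.61), and for Reg3g they were Sppl2a (0.58), Ms4a4c (0.57), Sp110 (0.57), Gimap4 (0.57) and Gm4759 (0.57). For Itln1 the likeness was weak, with Ang4 (0.45), which encodes a secreted antimicrobial ribonuclease, first and E330009J07Rik (0.4), Mmp12 (0.34), Asph (0.33) and Ccl6 (0.33) after it. The low counts of Reg3b, Reg3g and Itln1 limit these last lists.

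The effect of each knockout was then tested within its line by the quasi-likelihood test of edgeR, adjusting for sex in the 2 lines with both sexes, and Benjamini-Hochberg adjustment over all genes tested at a threshold of 0.05. The targeted gene itself was lower in the knockout libraries by a log2 difference of −2.06 (SE 0.28, adjusted p = 0.0001) for Gpsm3. The estimates were −1.09 (SE 0.41, adjusted p = 1) for Nckap1l, −0.62 (SE 0.17, adjusted p = 0.21) for Dock2 and −0.48 (SE 0.39, adjusted p = 1) for Dok3. Taken as a gene named beforehand, without adjustment, it was lower in Nckap1l knockouts (interval −1.91 to −0.26, p = 0.0118 in edgeR's test). The same held in Dock2 knockouts (−0.96 to −0.28, p = 0.000644) but not in Dok3 (−1.26 to 0.30, p = 0.223). The CPM of the targeted gene overlapped between genotypes in all 4 lines. Medians in wild-type and knockout animals were 27.6 and 14.8 for Nckap1l and 35.7 and 22.4 for Dock2. They were 3.15 and 0.556 for Gpsm3 and 3.67 and 3.3 for Dok3. The transcript level therefore did not check the genotype label of each animal in any line, and in Dok3 it did not separate the groups either.

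None of the 9 genes passed the test in any line. In the Nckap1l line 6 of the 9 had enough counts to be tested and 0 passed, where 0% of all 17947 genes tested passed. In the Dock2 line 0 of 7 passed against 0.034% of all genes, in the Gpsm3 line 0 of 5 against 0.00569%, and in the Dok3 line 0 of 7 against 0%. At an unadjusted p under 0.05, edgeR's test gave 807 genes in Nckap1l, 900 in Dock2, 854 in Gpsm3 and 386 in Dok3. DESeq2 called 21, 76, 4 and 3 genes in the 4 lines and limma-voom 0, 0, 1 and 0, with none of the 9 genes among them. Reg3b and Reg3g were too low to be tested in any line, Itln1 in Nckap1l and Gpsm3, and Saa3 in Gpsm3.

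Retnlb had the same sign of estimate in all 4 lines. Among Nckap1l animals its CPM ran from 0.0541 to 35.6 with a median of 0.854 in wild type and from 0.235 to 394 with a median of 6.54 in knockout. The medians were 0.839 in wild-type and 3.33 in knockout Dock2 animals (ranges 0 to 20.0 and 0.131 to 75.2), and 2.04 and 5.89 in Gpsm3 animals (0.125 to 25.4 and 0.118 to 105.3). In the Dok3 line they were 1.69 and 2.0 (0 to 24.8 and 0.062 to 883). The ranges overlapped in every line, and the knockout animals reached the higher values in each.

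The log2 difference of Retnlb, knockout minus wild type, was 2.38 (SE 1.05, unadjusted 95% interval 0.23 to 4.53, adjusted p = 1) in Nckap1l and 1.29 (SE 0.60, interval 0.08 to 2.50, adjusted p = 0.938) in Dock2. It was 1.63 (SE 0.71, interval 0.19 to 3.07, adjusted p = 0.936) in Gpsm3 and 3.14 (SE 0.96, interval 1.21 to 5.06, adjusted p = 1) in Dok3. The unadjusted p of edgeR's test was 0.0309, 0.0367, 0.0271 and 0.002, and none passed after adjustment. The library with the highest Retnlb of each line, a knockout male in all 4, carried much of these values. Without it the estimate was 1.09 in Nckap1l, 0.69 in Dock2, 1.08 in Gpsm3 and 0.1 in Dok3. The genotype-by-line test gave no difference of the Retnlb effect between lines that passed (adjusted p = 1).

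The other differences were small, imprecise or both. In the Dok3 line Itln1 ran from 0.189 to 2.83 CPM with a median of 0.644 in wild type and from 0.372 to 66.1 with a median of 0.84 in knockout, with a log2 difference of 2.34 (SE 0.56, unadjusted p = 0.000136, adjusted p = 0.713 in edgeR's test). Without the animal with 66.1 CPM the difference was 1.13 (SE 0.37, adjusted p = 1). In the Dock2 line the differences were 0.57 (SE 0.21, adjusted p = 0.691) for Itln1, 0.57 (SE 0.19, adjusted p = 0.51) for Saa1 and 0.44 (SE 0.18, adjusted p = 0.794) for Saa2, with median Saa1 of 478 CPM in wild-type and 603 in knockout animals. Lypd8 had narrow intervals in all 4 lines, −0.44 to 0.14 in Nckap1l, 0 to 0.32 in Dock2, −0.15 to 0.31 in Gpsm3 and −0.27 to 0.39 in Dok3. For Saa3 and Lcn2 the intervals were wide, and they ran from −2.86 to 2.14 and from −1.43 to 1.66 in Nckap1l and from −0.87 to 4.0 and from −0.68 to 3.35 in Dok3.

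**Figure D4:**
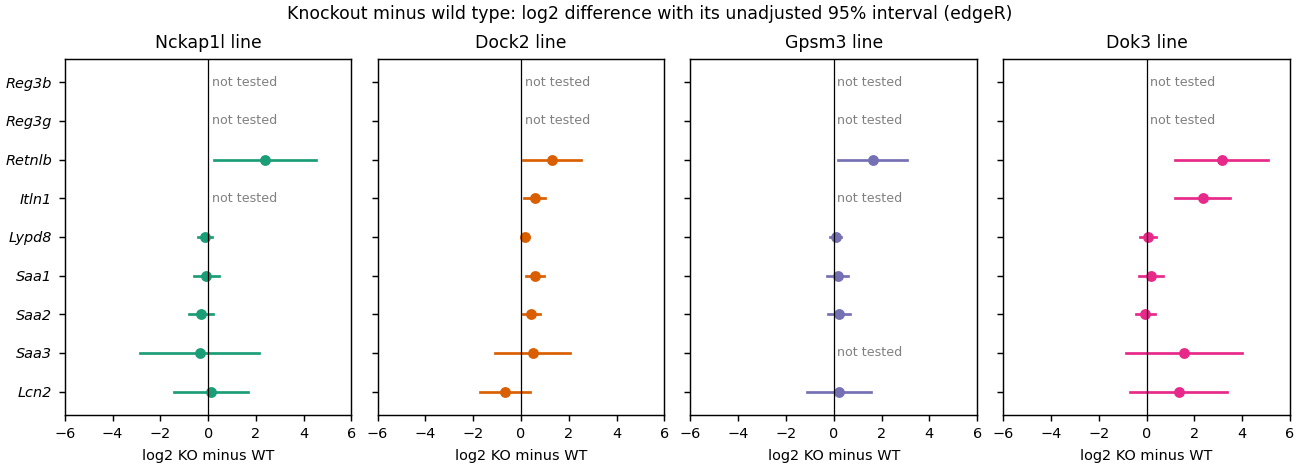
Log2 difference, knockout minus wild type, of each gene in the 4 lines on the horizontal axis, with bars for the unadjusted 95% interval of edgeR's quasi-likelihood fit, and genes with too few counts marked as not tested. Retnlb lies to the right of 0 in all 4 panels, from 1.29 to 3.14, and Lypd8 close to 0 with the shortest bars.

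Related genes were described from lists of other antimicrobial and lectin genes (23), interleukin-22, interleukin-17 and STAT3 signalling genes (24) and acute-phase genes (15). In the Dock2 line Ang4 was higher in the knockout, by a log2 difference of 2.59 (SE 0.40, adjusted p = 0.00164 by edgeR). It was 1 of 19 antimicrobial genes tested, where 0.034% of all 17648 genes passed. In this comparison limma-voom called 0 genes, and the fit of males alone called 1 gene, which was lower, so Ang4 passed in neither. No other gene of the 3 lists passed in any line, out of 19 antimicrobial genes tested in each line, 17 to 20 signalling genes and 5 to 8 acute-phase genes. In the Gpsm3 line the signalling genes with the smallest p were Cebpd, a C/EBP factor (0.41, SE 0.15, adjusted p = 0.936 by edgeR), and Socs3, a feedback inhibitor of STAT3 (1.04, SE 0.48, adjusted p = 0.936).

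The genotype-by-line test asked whether a knockout effect differed between the 4 lines. Of the 9 genes, Reg3g passed (F = 7.01, adjusted p = 0.0329 in edgeR's quasi-likelihood test), where 0.69% of all 19849 genes tested passed. Its mean CPM in knockout and wild type was 0.345 and 0.276 in Nckap1l, 0.461 and 0.193 in Dock2, 0.525 and 0.34 in Gpsm3, and 20.3 and 0.695 in Dok3. Reg3b had an adjusted p of 0.734. Without the single Dok3 knockout library with 518 CPM of Reg3g, the adjusted p of Reg3g in this test was 0.997. That of Reg3b was then 0.0914 (F = 5.83), smaller than with all libraries, and no member passed. Genotype-by-sex tests called 0% of 19639 genes in the Nckap1l line, with none of the 9 and 725 genes at an unadjusted p under 0.05 in edgeR's test, and 0.321% of 18402 genes in the Dock2 line, with none of the 7 members tested.

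Sex was compared with genotype as a covariate in the 2 lines that held both sexes. In the Dock2 line the sample numbers nearly followed sex, and a sample-number block of the Nckap1l line held males only. The labels do not give the DSS share of each sex. Sex, sample-number order and DSS share therefore cannot be fully told apart in these comparisons. In the Dock2 line Lcn2 and Retnlb were lower in females than in males. Lcn2 ran from 1.35 to 150.5 CPM with a median of 4.54 in the 22 males and from 0.923 to 13.3 with a median of 2.18 in the 20 females, a log2 difference of −1.97 (SE 0.52, interval −3.01 to −0.92, adjusted p = 0.0129 in edgeR's test). Retnlb ran from 0.202 to 75.2 CPM with a median of 3.7 in males and from 0 to 9.11 with a median of 1.38 in females, a difference of −1.88 (SE 0.62, interval −3.13 to −0.63, adjusted p = 0.0444). The sexes overlapped for both genes, and the highest value of each was in a male. These were 2 of the 7 members tested, both lower in females, where 10.1% of all 17578 genes tested passed. Saa3 had a difference of −1.99 (SE 0.81, adjusted p = 0.106), with medians of 1.31 CPM in males and 0.418 in females. Lypd8, Saa1, Saa2 and Itln1 had differences of −0.11, 0.27, 0.1 and 0.51, with adjusted p of 0.116 or more.

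The neutrophil markers moved in the same direction. Their sum ran from 4.48 to 2369 CPM with a median of 28.9 in Dock2 males and from 4.5 to 380 with a median of 7.42 in females, and none of the 10 was at 0 in all libraries. All 9 that could be tested were lower in females by estimate (median log2 difference −1.28), and 0 of them passed in edgeR's test. Of the 12 colon epithelium markers 3 were lower in females (median −0.16), where 10.1% of all genes passed. The skin markers had a median difference of 2.84 (4 of 4 tested above 0) and the striated muscle markers of −2.56 (0 of 4 above 0), and none of either passed. With the neutrophil mean level as a covariate, the difference was −0.61 (adjusted p = 0.0201) for Lcn2 and −1.06 (adjusted p = 0.202) for Retnlb. When each of the 42 libraries was left out in turn, Lcn2 passed in 42 of 42 fits with a difference of −2.35 to −0.97, the last without the wild-type male with 150.5 CPM. Retnlb passed in 18 of 42 fits, with adjusted p of 0.0244 to 0.12, and Saa3 passed in 1, without the knockout female with 36.1 CPM, which also had the highest skin marker sum of the series, 14081 CPM (−3.24, adjusted p = 0.00549). With the skin or the epithelium marker mean as a covariate, the adjusted p was 0.00277 or 0.00472 for Lcn2, 0.044 or 0.06 for Retnlb, and 0.00288 or 0.00455 for Saa3 by edgeR. By limma-voom the adjusted p was 0.0733 for Lcn2 and 0.22 for Retnlb.

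**Figure D5:**
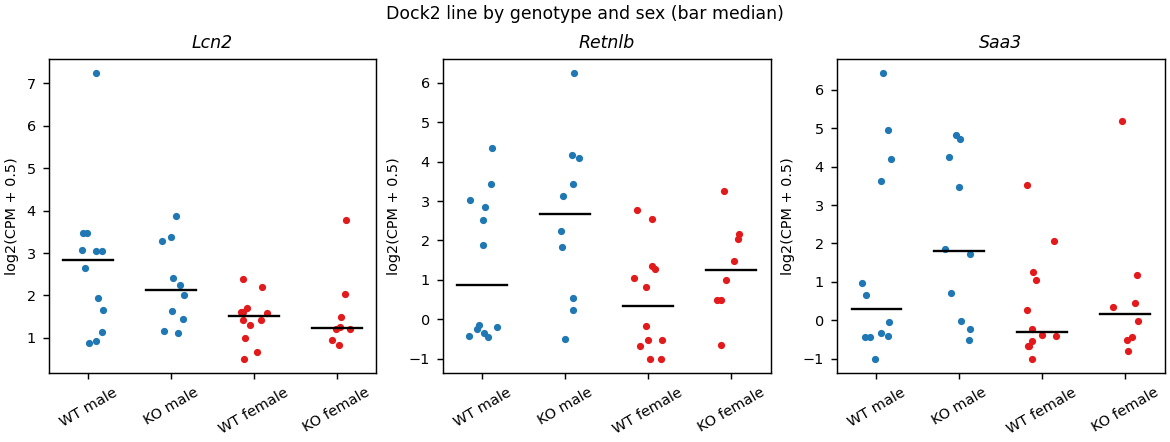
Levels of Lcn2, Retnlb and Saa3 in the Dock2 line by genotype and sex, as log2(CPM + 0.5) on the vertical axis, with 1 point a library (blue male, red female) and a bar at the median of each group. Females lie lower for Lcn2 (median 2.18 against 4.54 CPM) and Retnlb (1.38 against 3.7), with overlap, and a single wild-type male has the highest Lcn2, 150.5 CPM.

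In the Nckap1l line, with 19 males and 12 females, 0 of 7 members passed against 0.192% of all 18235 genes, while 2799 genes had an unadjusted p under 0.05 in edgeR's test and limma-voom and DESeq2 called none of the 9. The differences were 0.31 (SE 0.77) for Lcn2, −0.72 (SE 1.06) for Retnlb and 0.00 (SE 1.27) for Saa3, and whether the effect of sex differed between the 2 lines was not tested. Of the related genes in the Dock2 line, where 10.1% of all genes passed, 2 of 19 antimicrobial genes were lower in females, a share like that of all genes. They were Lgals3, a galectin (−0.35, SE 0.07, adjusted p = 0.00102 by edgeR), and Nos2, the inducible nitric oxide synthase (−2.70, SE 0.64, adjusted p = 0.00576). No signalling gene of 19 and no acute-phase gene of 5 passed.

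Lines were compared among wild-type males, 21 in Dok3, 20 in Gpsm3, 12 in Dock2 and 7 in Nckap1l. The labels do not give the DSS share of each line, and the sample numbers differ between lines. In every line contrast these cannot be told apart from line. In the contrasts of Dok3, line, strain and DSS dose also cannot be told apart. The Dok3 line is the single line of strain 129 and the single line for which the labels give 3.5% DSS. The Dock2 and Gpsm3 lines share strain, labelled dose and day of collection. The Nckap1l line differs from Gpsm3 in day and, by the study's methods, in dose, and these cannot be told apart from line. Against Gpsm3 males, Dok3 males had lower Lypd8, Saa1 and Saa2 and higher Itln1 and Lcn2. These were 5 of 9 members, 2 higher and 3 lower, where 27.2% of all 19603 genes tested passed. Lypd8 ran from 1621 to 6995 CPM with a median of 5141 in Dok3 and from 2882 to 8638 with a median of 6305 in Gpsm3 wild-type males, a log2 difference of −0.47 (SE 0.12, adjusted p = 0.00423 in edgeR's test). Saa1 had medians of 307 and 476.5 CPM (ranges 46.4 to 554.9 and 92.9 to 773.9, difference −0.64, SE 0.24, adjusted p = 0.0374), and Saa2 medians of 1.55 and 2.17 (0.53 to 3.35 and 0.5 to 4.11, difference −0.62, SE 0.21, adjusted p = 0.0219). Lypd8, Saa1 and Saa2 thus lay lower in Dok3 wild-type males, with overlapping ranges.

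Lcn2 ran from 1.01 to 659 CPM with a median of 3.16 in Dok3 and from 0.626 to 128.6 with a median of 1.72 in Gpsm3 wild-type males, a difference of 2.29 (SE 0.81, adjusted p = 0.0303 by edgeR). Single libraries set much of this value. It was 0.54 (adjusted p = 0.6) without the Dok3 animal with 659 CPM and 3.91 (adjusted p = 0.000264) without the Gpsm3 animal with 128.6. Itln1 had medians of 0.644 and 0.421 CPM (ranges 0.189 to 2.83 and 0.05 to 0.921, difference 0.89, SE 0.25, adjusted p = 0.00731). Strain 129 is known to carry intelectin genes that C57BL/6 lacks, so reads of a close copy may be counted as Itln1 there, and this value is uncertain. Over 53 fits that each left out 1 library, Lypd8, Saa2 and Itln1 passed in 53, Lcn2 in 52 and Saa1 in 43.

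Marker lists were also described in this contrast, where 27.2% of all genes passed. The shares passing lay above that only for the epithelium, fibroblast, and Paneth cell and small intestine markers. The neutrophil markers had a median log2 difference of 1.90, Dok3 minus Gpsm3, with 2 of 10 higher, and summed to a median of 32.2 CPM (2.15 to 4923) in Dok3 and 8.85 (3.42 to 1168.5) in Gpsm3. The epithelium markers had a median of −0.19, with 1 of 12 higher and 4 lower, and sums of 5042.5 to 16059 CPM (median 12848) in Dok3 and 10716 to 16143 (median 13929) in Gpsm3. Fibroblast markers had a median of 0.70 with 5 of 6 higher, macrophage markers 0.26 with 1 of 8 higher, and skin and striated muscle markers 1.60 and 2.35 with none passing. Hepatocyte markers had −0.61 with 1 of 4 tested lower, Paneth cell and small intestine markers −1.02 with 2 of 3 lower, and goblet cell markers −0.15 with none of 8 passing. With the epithelium marker mean as a covariate, Lypd8 and Itln1 still passed and Saa1, Saa2 and Lcn2 did not (adjusted p of 0.315, 0.154 and 0.71). The median of all genes was 0.01.

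Against Dock2 males, Dok3 males had higher Reg3b and Reg3g, 2 of 9 members, where 5.33% of all genes passed. Reg3b ran from 0 to 28.4 CPM with a median of 0 in Dok3 and from 0 to 0.254 with a median of 0.0311 in Dock2 wild-type males, a fitted difference of 4.64 (SE 1.35, adjusted p = 0.0271 in edgeR's test). Reg3g ran from 0 to 4.05 with a median of 0.196 and from 0 to 0.47 with a median of 0.0622, a difference of 2.50 (SE 0.74, adjusted p = 0.0321). Most animals of both lines were at or near 0 counts, and a few Dok3 animals set the differences. Reg3b had 3.23 (adjusted p = 0.128) without the animal with 28.4 CPM, and Reg3g passed in 44 of 53 fits that left out 1 library. None of the 9 passed between Dock2 and Gpsm3 (0.189% of all genes) or between Nckap1l and Gpsm3 (1.94% of all genes), in edgeR's test, where 1127 and 4194 genes had an unadjusted p under 0.05.

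The related genes were also compared between Dok3 and Gpsm3 wild-type males, where 27.2% of all genes passed. The counts of antimicrobial and signalling genes lay near that share. Of 20 antimicrobial genes tested 3 were higher, among them Ltf, lactoferrin (5.38, SE 1.06), and Slpi, a secreted protease inhibitor (1.78, SE 0.44), and 4 were lower, among them Ang4 (−2.48, SE 0.62) and Lgals3 (−0.44, SE 0.08), with adjusted p of 0.00235 or less by edgeR for these 4. Of 20 signalling genes 5 were higher and 1 lower, with the smallest p for Il23r (0.73, SE 0.23), Il6st, the shared receptor chain of the interleukin-6 family (0.38, SE 0.13), Osmr, the oncostatin M receptor (0.79, SE 0.27), and Cebpb, a C/EBP factor (0.95, SE 0.33), with adjusted p of 0.015, 0.0226, 0.0243 and 0.0254 by edgeR. Of 8 acute-phase genes 3 were higher, Orm2 (1.46, SE 0.26, adjusted p = 3.56e-05), C3 (1.08, SE 0.34, adjusted p = 0.014) and Serpina3n (1.54, SE 0.54, adjusted p = 0.0288). Between Dok3 and Dock2 males Orm2 was higher (1.53, SE 0.32, adjusted p = 0.000798 by edgeR) and Lgals3 lower (−0.42, SE 0.09, adjusted p = 0.00113), and Il6 was higher in Nckap1l than in Gpsm3 males (4.36, SE 0.98, adjusted p = 0.0106). Fits without single libraries were not examined for the related genes, so how far single animals set these values was not tested.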

How the data were processed

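RNA was measured in distal colon of 160 mice. Per the labels and the study's methods, the authors prepared ribosome-depleted, stranded libraries (KAPA Stranded RNA-Seq with RiboErase), sequenced single reads of 100 bases, aligned them to mm10 with STAR and counted reads per Ensembl gene with featureCounts of the Subread package (versions not given in the sources used here). The deposited values are raw counts per gene, 1 file a library, with no normalization by the authors. Library totals ran from 4344988 to 19993833 counts (median 15989625), so that 3 counts correspond to 0.15 to 0.69 CPM. Symbols were found for 37607 of 39179 identifiers (96.0%, holding 99.67% of counts). Within each group no 2 libraries agreed within counting noise (smallest chi-square per gene 3.74), and none was pooled. The coding strand setting of the counting is not given in the sources used here, and no annotated gene overlaps a member's exons.

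From the counts, CPM was computed by library total, and log2(CPM + 0.5) was used for correlations and figures. Groups were tested with edgeR 4.0.16 in R 4.3.3 (TMM scaling, filterByExpr, quasi-likelihood F test, Benjamini-Hochberg adjustment over all genes of a fit, threshold 0.05). The p-values of these fits set each difference against the spread between these animals. That spread includes the unknown mixture of DSS-treated and untreated animals. DESeq2 1.42.0 and limma-voom (limma 3.58.1), which the study used, a filter of at least 1 count, sample-number blocks, single-sex, single-genotype and knockout-male fits, a threshold of 0.01 for the knockout comparisons, and covariates for marker lists were alternatives. Covariates for skin and epithelium markers and fits without single libraries were chosen after seeing the data. Fits were tested on simulated data with known changes. Sequence matches used Biopython 1.88. Correlations used 100000 permutations (Python 3.11.15, numpy 2.4.6, scipy 1.17.1), and figures matplotlib 3.10.9.

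The 9 members and the gene lists were chosen with earlier results of these data known. From each list the text names every gene past the threshold or, where more than 4 pass, the 4 with the smallest p, and where none passes at most 2. The 5 genes with the highest Spearman's rho are named as nearest. DSS treatment of single animals is not in the labels, so no treated-untreated comparison was made. Sex-linked genes went against the labelled sex in 5 Dok3 animals and in none of the other lines.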

Additional observations from a re-analysis of the deposited data

Results flagged for a closer look

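Within groups of 4 to 10 animals of 1 line, genotype and sex, 45 combinations of gene and group were examined for a single animal far from the others, by Dixon's test at the 95% level, and about 1 in 20 is flagged by chance. The 8 combinations found came from 4 animals and are not separate events. A Dock2 knockout female stood apart with the highest Saa3 (36.1 CPM) and Lcn2 (13.3 CPM) of its group, and it also had 14081 CPM of skin markers, the highest of the series. The part of the skin markers in these values was not tested. A Dock2 knockout male stood apart with the highest Reg3b (17.9 CPM), Reg3g (2.97 CPM) and Lypd8 (8466 CPM). A Nckap1l knockout female had the highest Reg3b of its 4 (1.78 CPM), and 1 of the 8 Nckap1l wild-type females had both the highest Retnlb (35.6 CPM) and the highest Lcn2 (74.1 CPM). All 8 of these were high values.

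The knockout effect on Reg3g differed between the lines in edgeR's test of the genotype-by-line interaction (adjusted p = 0.0329). This rested on the Dok3 knockout animal with 518 CPM of Reg3g, and without it the adjusted p was 0.997. The same animal also had 1354 CPM of Reg3b and 883 CPM of Retnlb, the highest of all 160.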

How the results depend on the processing

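No paired analysis was possible because the groups compared share no replicate numbers. In the knockout comparisons 0 members passed under every alternative run, also at a threshold of 0.01. In Dock2 females against males the 2 members called became 0 by limma-voom and 1 with at least 1 count, with the neutrophil covariate, in wild type only, and at the lowest when single libraries were left out (range 1 to 3). In Dok3 against Gpsm3 the 5 called became 3 with the skin covariate and 2 with the epithelium covariate (4 to 7 without single libraries). In Dok3 against Dock2 the 2 called became 1 by DESeq2, 0 by limma-voom and with the neutrophil covariate, 5 among knockout males, and 0 to 2 without single libraries. The 1 member called for genotype by line became 0 without the Dok3 knockout animal with the highest Reg3b. In the Dock2 line 12 relations with marker lists passed by Pearson's r, 7 without the 2 farthest libraries and 6 without skin-rich libraries. The planned fits of sex without mislabelled animals gave no value, since no animal of those 2 lines went against its label.

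Of the log2 values under alternatives, 377 kept direction and call, 34 changed sign, 9 passed newly and 20 no longer passed, and none of the 34 had passed in the first place. For knockout minus wild type in Nckap1l, Saa1 became 0.06 by limma-voom, 0.02 with the number block, 0.01 in males and 0.01 with the skin covariate; Saa3 1.05 by limma-voom, 1.05 with the block and 0.88 with the neutrophil covariate; Lcn2 -1.16 in males and -0.38 with the skin covariate. In Dock2, Saa3 became -0.45 in males and Lcn2 0.28 by DESeq2. In Dok3, Lypd8 became -0.01 by limma-voom, -0.03 with the neutrophil and -0.05 with the skin covariate, Saa2 0.04 without the 5 animals of doubtful sex, Saa3 -0.34 and -0.2 and Lcn2 -0.67 and -0.57 by limma-voom and with the neutrophil covariate. For sex in Nckap1l, Retnlb became 0.39 with the skin covariate, Itln1 0.52 by DESeq2, 0.51 by limma-voom, 0.13 with the neutrophil and 0.24 with the skin covariate, and Lcn2 -0.08 with the neutrophil covariate, -1.39 in wild type and -0.84 with the epithelium covariate. For sex in Dock2, Saa2 became -0.05 with the neutrophil covariate. In Dok3 against Gpsm3, Reg3b became -0.44 by DESeq2 and -0.67 with the neutrophil covariate, and Retnlb 1.3 in knockout males. In Dok3 against Dock2, Retnlb became 1.47 in knockout males and 0.05 without animals of doubtful sex, and Lcn2 -1.2 with the epithelium covariate. The causes were not tested.

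Counts of all genes called moved by more than 1.5 times as follows. With at least 1 count, 0, 6, 1 and 0 genes in the knockout comparisons of Nckap1l, Dock2, Gpsm3 and Dok3 became 27, 31, 32 and 15, and by DESeq2 21, 76, 4 and 3. The 6 of Dock2 became 0 by limma-voom, 1 in males and 21 with the skin covariate. For sex in Nckap1l, 35 became 201 by DESeq2, 55 with at least 1 count, 12 with the block, 81 with the neutrophil and 173 with the skin covariate, and 9 in wild type, and for sex in Dock2 1769 became 358 in wild type. The 5323 of Dok3 against Gpsm3 became 2098 among knockout males, 3336 with the skin and 2854 with the epithelium covariate, and the 1045 of Dok3 against Dock2 became 1570 with the neutrophil and 1640 with the epithelium covariate. The 37 of Dock2 against Gpsm3 became 1, 13, 78 and 7 by limma-voom, among knockout males, and with the skin and epithelium covariates. The 381 of Nckap1l against Gpsm3 became 612 by DESeq2, 246 with at least 1 count, 70 among knockout males, and 131, 248 and 160 with the neutrophil, skin and epithelium covariates. Depth limits Reg3b and Reg3g most, with 73 and 29 libraries at 0 counts.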

Other observations

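Genes that ran opposite to the members across all 160 libraries were also listed, 3 for each, by the lowest Spearman's rho, after the means of line, genotype and sex groups were removed, as values only. For Lcn2 they were Aldh2 (-0.9), the mitochondrial aldehyde dehydrogenase, Gal3st2c (-0.89), a galactose sulfotransferase, and Tmem30b (-0.89). For Saa3 they were Sycn, Itih2 and Itih5 (-0.87 each), and Itih5, an inter-alpha-trypsin inhibitor heavy chain, had a median of 739 CPM. For Retnlb they were Fam184b (-0.78), Znrf3 (-0.75), which encodes a ligase that removes Wnt receptors from the cell surface, and Dpyd (-0.74). For Lypd8 they were Hipk2 (-0.76), Agap3 (-0.75) and Flt1 (-0.74), and for Saa1 they were Sh3pxd2a (-0.73), Tpbg (-0.7) and Galnt16 (-0.7).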
